A study of Mus musculus with 2 samples.

Results

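The sugar, amino acid and peptide transporters described here are the protein-coding mouse genes whose symbols place them in the solute carrier families Slc1, Slc2, Slc3, Slc5, Slc6, Slc7, Slc15, Slc16, Slc36, Slc38 and Slc43. The rule reads the symbol and no measured value, although it was written with earlier results of these data known. There are 107 such genes among 21474 protein-coding genes and 43346 Ensembl genes measured, in 11 families on 20 chromosomes. They were measured in total RNA from whole intestine of B6NCrl mouse embryos at embryonic day 15.5, with no genetic change or treatment. There were 2 libraries in 1 group: replicate 1 came from a pool of 78 embryos and replicate 2 from a pool of 62, both of mixed sex. Each value is therefore an average over many embryos and over every cell type and length of the gut, and no other age or tissue was compared.

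Nutrients cross the intestinal epithelium in 2 steps. Transporters in the apical membrane, facing the lumen, take sugars, amino acids and small peptides into the enterocyte, mostly driven by sodium or proton gradients, and transporters in the basolateral membrane release them towards the blood. Other members of the same families feed the cell's own growth, clear neurotransmitters, move lactate and osmolytes, or work in lysosomes. Before birth the embryo is fed mainly through the placenta.

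The tables hold 33665128 estimated counts on genes in replicate 1 and 39953610 in replicate 2, of which 99605 and 114679 fall on the transporters. Levels are given in TPM, a transcript abundance scaled for gene length and library total so that genes can be compared, with replicate 1 before replicate 2 and SD over n = 2. At this depth 3 counts on a transporter gene correspond to a median of 0.0477 and 0.0415 TPM. All 8 gut epithelium markers and all 5 smooth muscle markers were detected in both libraries, among them Epcam at 653 and 669 TPM and Acta2 at 1251 and 1296 TPM. The libraries differed in other lists: 6 of 6 exocrine pancreas markers were higher in replicate 1, with a sum of 5720 TPM against 1998 TPM in replicate 2, as were 5 of 5 liver markers, with sums of 683 and 482 TPM. Mesenchyme markers were higher in replicate 2 in 5 of 5 cases, with sums of 2846 and 3192 TPM. In such a tissue a lower level can come from fewer cells of a type or from less RNA per cell, and these cannot be told apart.

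Of the 107 transporters, 67 (62.6%) were detected, meaning at least 1 TPM in both libraries. The share among all protein-coding genes was 62.7%, so the transporters stood near the background. Another 6 passed in 1 library only and 34 in neither. At least 10 TPM in both libraries was reached by 33 transporters (30.8%), against 40.1% of protein-coding genes. The median level was 2.76 TPM over all transporters and 10.7 TPM over the detected ones, against 5.07 and 17.8 TPM for protein-coding genes. Other solute carriers outside the mitochondrial Slc25 family were detected in 119 of 189 cases (63.0%), and Slc25 genes in 39 of 47 (83.0%). Together the transporters took 0.135 ± 0.00267% of gene TPM, and the 10 highest of them in each library held 51.4 ± 1.13% of that.

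In 7 of the 11 families the leading member held over 50% of the family's TPM. This share depends on family size, which ran from 2 genes in Slc3 to 21 in Slc6. In Slc3 the leader holds at least 50% by construction. Slc2a1 (ENSMUSG00000028645.6, chromosome 4, 119108711 to 119137983), the basal glucose transporter GLUT1, was the highest transporter of all at 119.6 and 121.2 TPM and was the only one above 100 TPM in both libraries. It held 67.7% of its family. Slc3a2 led Slc3 with 76.7%, Slc1a5 led Slc1 with 74.1% and Slc36a4 led Slc36 with 73.2%. The leaders Slc43a3, Slc15a4 and Slc5a1 held 60.7%, 59.5% and 59.4% of their families. In the remaining families the leader held a smaller share: Slc16a3 held 41.1% of Slc16, Slc6a6 37.0% of Slc6, Slc7a9 27.9% of Slc7 and Slc38a2 26.0% of Slc38. When members averaging at least 1 TPM were placed in order within each family, 45 of the 59 pairs of neighbours had library ranges that did not overlap. In the other 14 the ranges overlapped and the order was not resolved, for example Slc38a2 against Slc38a10 and Slc7a1 against Slc7a4. Ranges of only 2 libraries that do not overlap do not settle an order either. Slc43a1 had a range above that of Slc43a2, but the deposited posterior mean TPM was 12.44 and 13.57 for Slc43a1 against 12.66 and 13.53 for Slc43a2.

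**Figure D1:**
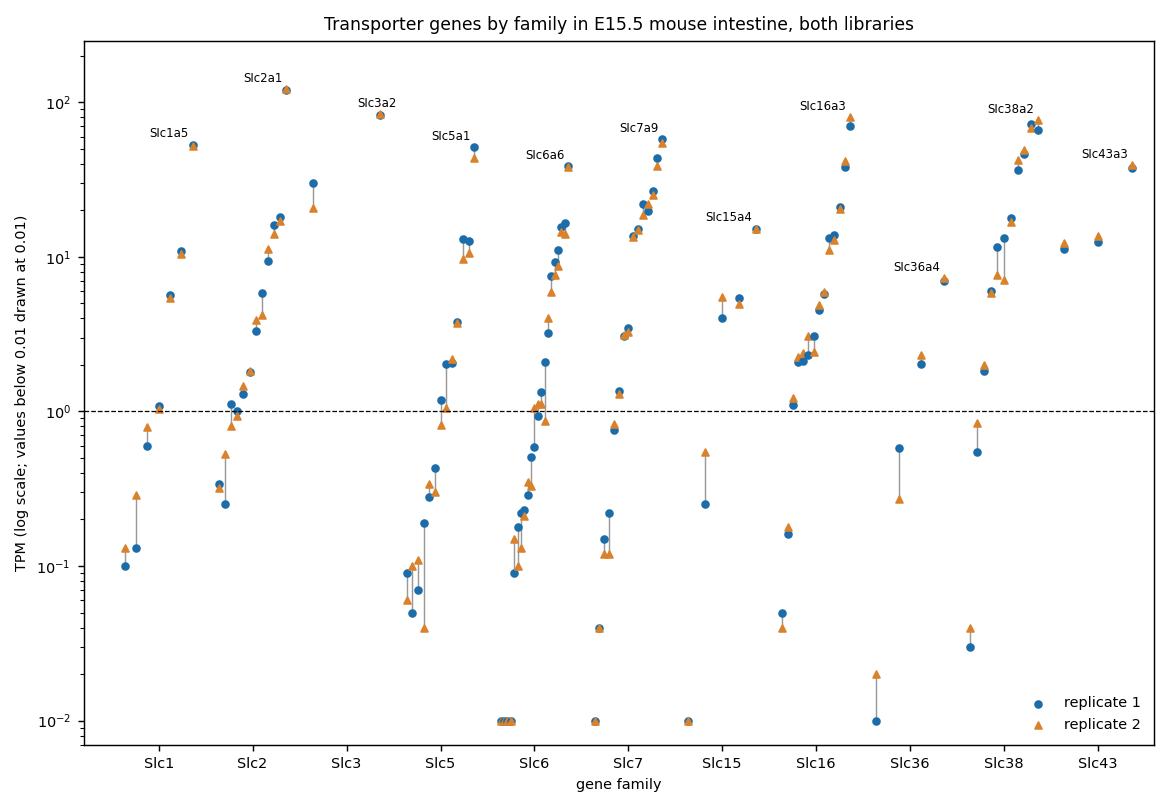
Level of each of the 107 transporter genes in TPM on a log scale, by family. Circles are replicate 1 and triangles replicate 2, a line joins the values of a gene, and the dashed line marks 1 TPM; the leading member of each family is named, with Slc2a1 highest at 119.6 and 121.2 TPM.

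The apical absorption genes ranged from abundant to barely present. Of 11 genes, 8 were detected and 4 reached 10 TPM in both libraries, with a median of 5.21 TPM. The shares among all protein-coding genes were 62.7% and 40.1%. Slc7a9 (ENSMUSG00000030492.12, chromosome 7, 35448796 to 35466036), the light subunit of the exchanger for cystine and basic amino acids, stood at 58.0 and 54.5 TPM. Slc5a1 (ENSMUSG00000011034.4, chromosome 5, 33104219 to 33162870), the sodium-coupled glucose and galactose transporter SGLT1, stood at 51.4 and 43.7 TPM. Slc3a1, the heavy subunit that partners Slc7a9, stood at 29.8 and 20.7 TPM. These genes, with Slc6a20a at 16.5 and 14.1 TPM, made up the 4 above 10 TPM, and Slc6a20a is the transporter for proline and other imino acids.

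The next apical genes were lower. Slc6a19, the main apical carrier of neutral amino acids (B0AT1), stood at 11.0 and 8.67 TPM. Slc15a1, the proton-coupled peptide transporter PEPT1, stood at 5.45 and 4.96 TPM, far below Slc7a9 in both libraries. Slc36a1, a proton-coupled carrier of small amino acids, stood at 2.03 and 2.32 TPM and the fructose transporter Slc2a5 (GLUT5) at 1.80 and 1.83 TPM. Genes at the detection limit followed. Slc6a14, a carrier of neutral and cationic amino acids, stood at 0.930 and 1.11 TPM, Slc5a8, a sodium-coupled monocarboxylate transporter, at 1.18 and 0.820 TPM, and Slc1a1, the epithelial glutamate transporter, at 0.60 and 0.79 TPM. Slc5a1 thus stood far above the fructose carrier in both libraries.

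The basolateral exit genes were all detected. Of these 8 genes, 7 reached 10 TPM in both libraries and the median was 23.2 TPM. Among all protein-coding genes 62.7% were detected and 40.1% reached 10 TPM in both libraries. Slc3a2 (ENSMUSG00000010095.9, chromosome 19, 8706882 to 8723369), the heavy chain CD98 that carries several light chains to the membrane, stood at 82.5 and 83.9 TPM. Slc7a7, its light chain for export of basic amino acids, stood at 43.6 and 38.7 TPM. Slc16a1, the monocarboxylate transporter MCT1, stood at 37.9 and 41.9 TPM. These were followed by 3 carriers whose libraries lay close together: Slc7a8, a light chain for neutral amino acids, at 26.5 and 25.1 TPM, the aromatic amino acid carrier Slc16a10 at 20.9 and 20.5 TPM, and Slc7a6, a light chain related to Slc7a7, at 13.6 and 13.4 TPM. Slc43a2, a facilitative carrier of large neutral amino acids, stood at 11.2 and 12.2 TPM. The lowest was Slc2a2, the glucose transporter GLUT2 through which absorbed sugar leaves the enterocyte, at 5.85 and 4.21 TPM, below Slc5a1 in both libraries.

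**Figure D2:**
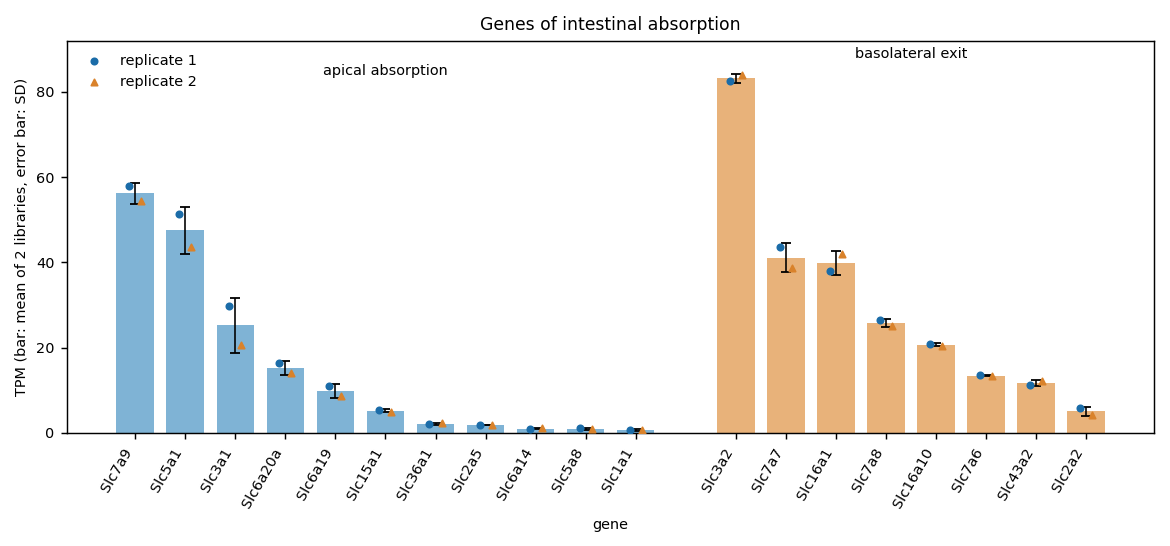
Level in TPM of the 11 apical absorption genes (left) and the 8 basolateral exit genes (right), with a linear axis from 0. Bars are means of the 2 libraries, error bars the SD, circles replicate 1 and triangles replicate 2; Slc7a9 and Slc5a1 lead the apical genes and Slc3a2 the basolateral ones.

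The heteromeric exchangers need a heavy and a light subunit. Slc7a9 exceeded its heavy subunit Slc3a1 by 1.95-fold in replicate 1 and 2.63-fold in replicate 2. The 6 light chains of Slc3a2 summed to 102 TPM in replicate 1 and 95.4 TPM in replicate 2, which is 1.24 and 1.14 times the level of Slc3a2 itself. Of this sum Slc7a7 made up 41.6 ± 1.51%, Slc7a8 26.1 ± 0.212%, Slc7a5 15.3 ± 0.693% and Slc7a6 13.6 ± 0.502%. The cystine and glutamate exchanger light chain Slc7a11 was nearly absent at 0.220 and 0.120 TPM.

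The sequence upstream of Slc5a1, Slc2a2 and Slc3a1, absorption genes that were all higher in replicate 1, with deposited credibility intervals for read counting and assignment that did not overlap, is shown here with Slc2a1, the highest transporter, beside them. These are RefSeq promoter windows (GRCm38.p6), in each case the 200 bases before the earlier of the RefSeq and GENCODE gene starts. The absorption genes Slc6a20a, Slc5a8 and Slc7a7 were also higher in replicate 1 with intervals that did not overlap, and are not shown. Capitals mark a match, on either strand, to AGATAA (the motif of GATA factors), CAAAGTCCA (an HNF4 motif), ACGTG (a core shared by E-box and stress-response motifs) or GGGCGG (a GC box). The CACGTG in the Slc5a1 window is a match on both strands.
Slc5a1 (chr5:33104019-33104218, plus strand): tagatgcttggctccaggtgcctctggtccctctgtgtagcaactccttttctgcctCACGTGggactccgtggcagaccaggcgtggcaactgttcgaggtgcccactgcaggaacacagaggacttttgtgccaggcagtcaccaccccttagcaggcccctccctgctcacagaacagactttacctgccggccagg
Slc2a2 (chr3:28697703-28697902, plus strand): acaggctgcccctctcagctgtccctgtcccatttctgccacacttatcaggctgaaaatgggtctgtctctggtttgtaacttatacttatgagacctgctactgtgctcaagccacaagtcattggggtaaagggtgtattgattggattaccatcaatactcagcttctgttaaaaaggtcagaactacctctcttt
Slc3a1 (chr17:85028147-85028346, plus strand): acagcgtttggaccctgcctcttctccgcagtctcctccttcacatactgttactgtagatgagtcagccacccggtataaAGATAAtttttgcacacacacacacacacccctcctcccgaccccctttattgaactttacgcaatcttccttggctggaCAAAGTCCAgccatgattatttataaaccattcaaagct
Slc2a1 (chr4:119108511-119108710, plus strand): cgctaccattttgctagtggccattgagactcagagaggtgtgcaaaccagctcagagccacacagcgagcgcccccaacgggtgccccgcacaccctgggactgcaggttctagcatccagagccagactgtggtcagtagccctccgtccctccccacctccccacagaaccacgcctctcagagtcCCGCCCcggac

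The Slc3a1 window held matches to the GATA and HNF4 letters, the Slc5a1 window to ACGTG, the Slc2a1 window to the GC box and the Slc2a2 window to none. Over 101 windows of 250 bases belonging to 78 of the transporters, AGATAA was found in 4.95%, against 9.99% of all 32851 RefSeq windows, and CAAAGTCCA in 1 window, that of Slc3a1, against 0.384% of all windows. ACGTG was found in 22.8% of transporter windows against 16.6%, and GGGCGG in 46.5% against 32.7%. The other 29 transporters had no window, and a match of letters describes the sequence only.

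Genes that feed the cell's own growth were mostly detected. Of 17 general uptake genes, 16 were detected and 10 reached 10 TPM in both libraries, beside 62.7% and 40.1% of all protein-coding genes. After Slc2a1 came the glutamine and alanine carriers Slc38a2 at 66.6 and 76.4 TPM and Slc38a1 at 46.2 and 49.0 TPM. Slc1a5, the neutral amino acid exchanger ASCT2 that takes up glutamine, stood at 53.2 and 51.9 TPM. Slc38a4, a carrier of neutral and cationic amino acids, stood at 36.4 and 42.3 TPM. The sodium-dependent carriers Slc38a1, Slc38a2 and Slc1a5 were thus among the highest transporters of the tissue. Slc7a1, the main arginine and lysine carrier, stood at 19.9 and 22.1 TPM, the insulin-responsive glucose transporter Slc2a4 at 18.1 and 17.1 TPM and Slc7a5, the large neutral amino acid light chain LAT1, at 15.06 and 15.02 TPM. Slc43a1, which like Slc43a2 carries large neutral amino acids independently of sodium, stood at 12.5 and 13.6 TPM. The serine and alanine exchanger Slc1a4 at 10.9 and 10.5 TPM and the glucose transporter Slc2a3 at 9.41 and 11.2 TPM stood close together, and the 2 libraries of Slc1a4 lay inside the range of Slc2a3. Slc38a3, a glutamine carrier, was less even at 13.3 and 7.04 TPM.

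Carriers of lactate, osmolytes and signalling molecules were led by a few genes each. Their detected counts stand beside 62.7% of all protein-coding genes. In the monocarboxylate and hormone group 9 of 12 genes were detected, led by Slc16a3 (MCT4, the lactate exporter of glycolytic cells) at 70.2 and 80.2 TPM. Slc16a6 followed at 13.8 and 12.9 TPM and Slc16a13 at 13.3 and 11.0 TPM. Among osmolyte and creatine carriers 5 of 7 were detected. The taurine transporter Slc6a6 stood at 38.5 and 37.9 TPM and the inositol transporter Slc5a11 at 13.1 and 9.62 TPM. In the transmitter group 6 of 14 genes were detected and the median was 0.570 TPM. Its highest member was the serotonin transporter Slc6a4 at 15.5 and 14.5 TPM.

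The intracellular group had 5 of 8 genes detected, beside 62.7% of all protein-coding genes. Slc38a7, a lysosomal glutamine carrier, stood at 17.9 and 16.9 TPM and the glucose transporter Slc2a8 at 16.03 and 14.03 TPM. Slc15a4, the peptide and histidine carrier of lysosomes and endosomes, was almost equal in the libraries at 15.2 and 15.2 TPM. Slc36a4 led its small family at 6.99 and 7.26 TPM. Outside these classes, Slc38a10 stood at 72.8 and 68.2 TPM, Slc43a3, a carrier of purine bases in human cells, at 37.4 and 39.0 TPM, Slc7a4 at 22.0 and 18.5 TPM and the biotin and pantothenate carrier Slc5a6 at 12.6 and 10.7 TPM. Of the 30 genes outside the classes only 10 were detected. Slc15a5, Slc6a16, Slc6a21 and Slc7a12 had no counts in either library, where 3 counts would correspond to between 0.0775 and 0.114 TPM. The upper bounds of their deposited credibility intervals were higher, from 0.211 TPM for Slc7a12 in replicate 2 to 0.818 TPM for Slc15a5 in replicate 1.

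RNA was also measured for genes whose proteins work with the transporters. Of 23 partner genes matched, 20 were detected, a list chosen for its known roles, beside 62.7% of protein-coding genes. Bsg, the basigin chaperone of Slc16a1 and Slc16a3, stood at 940 and 938 TPM and the related Emb at 11.1 and 11.6 TPM. Basigin was by far the most abundant of the partners. The sodium pump that maintains the gradient for Slc5a1 was represented by its beta subunit gene Atp1b1 at 169 and 170 TPM. Cltrn, the collectrin that partners Slc6a19 in the kidney, stood at 7.93 and 8.97 TPM, close to Slc6a19 itself. Pdzk1, a scaffold of apical transporters, stood at 16.2 and 13.1 TPM.

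Genes around sugar handling were uneven. Khk, the fructose kinase, stood at 20.6 and 16.9 TPM, above the fructose carrier Slc2a5 in both libraries. Slc37a4, which carries glucose phosphate into the endoplasmic reticulum, stood at 42.9 and 35.5 TPM, while G6pc, its enzyme partner, was listed at 0.32 and 0.25 TPM. Of the brush border enzymes that release sugars, lactase Lct stood at 20.9 and 16.4 TPM and Mgam at 12.4 and 10.5 TPM, sucrase-isomaltase Sis at 0.610 in both and trehalase Treh at 0. The enzymes for lactose and starch were thus detected and those for sucrose and trehalose were not. Txnip and Arrdc4, arrestins that limit glucose uptake, stood at 113 and 122 TPM and at 26.9 and 25.7 TPM, and Mlxipl, a glucose-sensing factor, at 6.21 and 5.01 TPM. The amino acid response factor Atf4 stood at 118 and 114 TPM, and the amino acid sensors Castor1 and Sesn2 of the mTOR pathway at 3.76 and 2.62 TPM and at 9.27 and 9.07 TPM. The kinase gene Mtor itself stood at 9.53 and 10.5 TPM and Nprl3, a subunit of the GATOR1 complex that restrains it, at 27.5 and 24.2 TPM.

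Some members of a family that lie side by side in the genome differed in level. Within 200 kb there were 13 pairs of neighbours of 1 family, formed by 24 genes, and in 11 pairs the library ranges did not overlap. In 10 pairs the lower gene was below 1 TPM in both libraries, and in 5 of these the higher gene was too. The same counts were not made for other neighbouring genes. Slc6a19 stood at 11.0 and 8.67 TPM while Slc6a18, 1.72 kb away, was at 0.01 and 0 TPM. Slc2a5 stood at 1.80 and 1.83 TPM while Slc2a7, 4.802 kb away, was at 0.25 and 0.53 TPM. Both genes were detected in only 3 pairs, Slc38a2 with Slc38a1, Slc43a3 with Slc43a1, and Slc16a13 with Slc16a11, where the higher gene exceeded the lower by 1.5-fold, 2.93-fold and 4.40-fold.

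**Figure D3:**
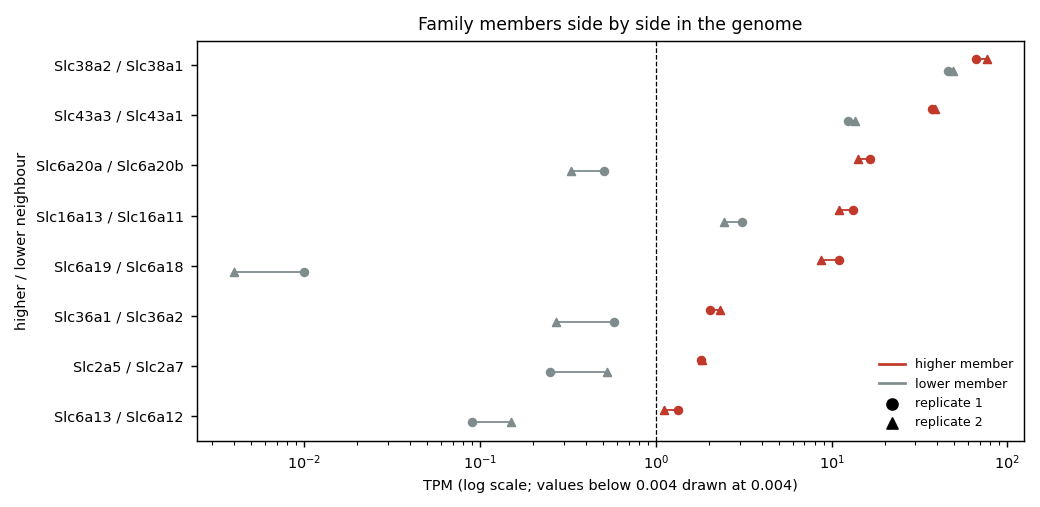
Level in TPM on a log scale of neighbouring genes of 1 family, for the 8 pairs whose higher member averaged at least 1 TPM. Red is the higher and grey the lower member, circles are replicate 1 and triangles replicate 2, and the dashed line marks 1 TPM; in 5 of these pairs the lower member lies left of that line in both libraries.

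The pair with the closest sequences was Slc6a20a and Slc6a20b, 2.20 kb apart on the minus strand of chromosome 9. Slc6a20a stood at 16.5 and 14.1 TPM and Slc6a20b at 0.510 and 0.330 TPM. Their coding sequences of 1779 and 1908 bases are 91.5% identical over 1779 aligned bases, and their longest identical run is 321 bases. The 60 coding bases where they differ most, at 26 positions in capitals, show where reads can be assigned to either copy.
Slc6a20a (chr9:123636997-123637056, minus strand): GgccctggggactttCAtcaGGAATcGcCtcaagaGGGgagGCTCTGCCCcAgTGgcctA
Slc6a20b (chr9:123594994-123595053, minus strand): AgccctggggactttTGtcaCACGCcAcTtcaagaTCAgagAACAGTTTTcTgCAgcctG

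Over all their annotated transcripts Slc6a20a shared 32.0% of its 31-base words with other genes and Slc6a20b 31.5%. For Slc6a20a the closest gene was Slc6a20b, with 19.5% of its words. For Slc6a20b it was Sacm1l, with 20.5%. Exons of Sacm1l overlap Slc6a20b on the opposite strand, and Sacm1l stood at 56.83 and 58.95 TPM. The single values of Slc6a20a and Slc6a20b are therefore uncertain. The same holds for 8 further transporters with over 20% shared, among them Slc3a1 at 25.5%, all of it with Prepl, whose exons overlap it on the opposite strand and which stood at 17.6 and 18.2 TPM. The strand setting of the counting was not stated. If strand was not used, reads of Slc3a1 and Prepl cannot be told apart in that stretch. Words were compared on both strands, so for overlaps on opposite strands the shared percent depends on this setting. Slc5a6 at 31.1% and Slc16a6 at 22.4% are likewise less certain than their depth implies, as is Slc1a1 at 31.5%.

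For most detected transporters the leading transcript was annotated as protein-coding. In 4 of 67 it carried a noncoding annotation, against 6.18% of detected protein-coding genes. In Slc7a10, a small neutral amino acid light chain, the leader was a 516-base transcript that is not in the annotation used here, with 59.3% and 55.7% of the gene's TPM, and it is not among the 4. Slc1a5 was led by a retained intron transcript that held 47.7% and 44.8% of the gene's TPM, beside 43.5% and 45.9% on its coding transcript, so the order of these transcripts differed between the libraries. Slc6a8, the creatine transporter, was led by a transcript annotated for nonsense-mediated decay with 60.8% and 55.8%, and its highest coding transcript held 18.03% and 22.4%. Slc16a9 and Slc16a11 were led by retained intron transcripts on average, at 51.7 ± 5.56% and 23.5 ± 16.1%, but not by the same transcript in each library. In replicate 2 the coding transcript of Slc16a9 was ahead, at 52.2% against 47.8%. In replicate 1 the Slc16a11 leader at 12.1% was below another retained intron transcript at 22.7% and a coding one at 21.2%. In replicate 2 that leader held 34.9%, against 25.4% on the highest coding transcript. A retained intron transcript of Slc16a11 was thus above its coding transcripts in both libraries. These percentages are the authors' estimates for single transcripts.

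Of the 67 detected transporters, 11 divided their output between 2 or more coding transcripts of over 20% each. The same count was not made for all detected protein-coding genes, so it is not known whether this share is unusual. In Slc1a4 the leading transcripts held 47.4% and 56.2%, and 52.6% and 43.8%, so the leader changed between the libraries. In Slc16a3 they held 52.9% and 61.3%, and 32.2% and 23.2%. In Slc7a1 a 1792-base transcript held 69.6% and 74.0% and a 7179-base transcript 30.4% and 25.5%. Slc43a1 and Slc38a3 showed the same kind of division, with leaders at 45.3 ± 1.195% and 44.9 ± 8.40%. In Slc5a11 the leading transcripts averaged 36.4 ± 12.5% and 35.2 ± 14.5% and could not be ordered.

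**Figure D4:**
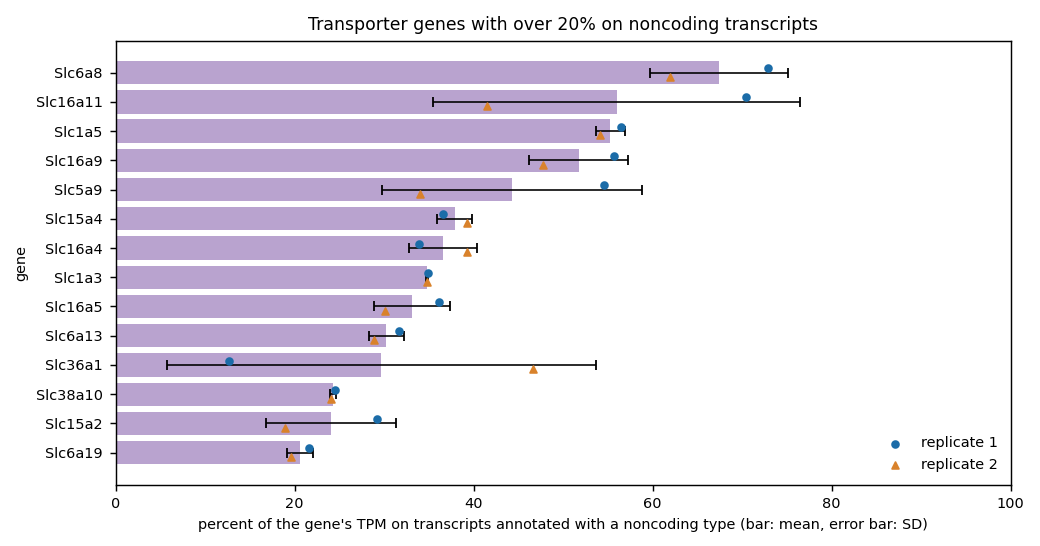
Percent of a gene's TPM that falls on transcripts annotated with a noncoding type (transcripts absent from the annotation are not counted), for the 14 detected transporters with a mean of at least 20%. Bars are means of the 2 libraries, error bars the SD, circles replicate 1 and triangles replicate 2; Slc6a8 is highest, at 72.9% in replicate 1 and 62.0% in replicate 2.

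The libraries were about as close for the transporters as for all protein-coding genes. The log2 ratio of replicate 1 over replicate 2 was taken after adding 1 TPM to each value, which shrinks the ratios of low genes, for 70 transporters averaging at least 1 TPM. The median ratio was 0.03 with an SD of 0.23, against a median of -0.02 with an SD of 0.23 for all protein-coding genes. Of the 70 transporters, 40 were higher in replicate 1 and 30 in replicate 2, a split that was not counted for all protein-coding genes. None of the 70 was over 2-fold apart, against 0.558% of protein-coding genes. With 1 library on each side of this ratio there is no test of it.

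The deposited credibility intervals, which cover counting and read assignment only, did not overlap between the libraries for 14 of the 70 transporters, against 22.7% of protein-coding genes. Replicate 1 was higher in 8 of them. Slc38a3 had the largest ratio at 0.83, and Slc38a5, a related glutamine carrier at 11.5 and 7.63 TPM, had 0.54. Slc3a1 followed with 0.51, Slc2a2 with 0.39, Slc5a8 with 0.26, Slc5a1 with 0.23, Slc6a20a with 0.21 and Slc7a7 with 0.17. Replicate 2 was higher in 6, namely Slc6a15 at -0.26, Slc38a4 at -0.21, Slc38a2 at -0.20, Slc16a3 at -0.19, Slc16a1 at -0.14 and Slc38a1 at -0.08.

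By class, 7 of the 10 apical genes averaging at least 1 TPM were higher in replicate 1, and the class summed to 179 TPM in replicate 1 against 153 TPM in replicate 2. Of the monocarboxylate and hormone genes 3 of 9 were higher in replicate 1, with sums of 114 and 122 TPM. The share of all protein-coding genes higher in replicate 1 was not counted, and with 1 library on each side these class counts have no test. The marker sums moved between the libraries as well: the 8 gut epithelium markers summed to 4235 and 3864 TPM, with 6 of 8 higher in replicate 1, beside the pancreas, liver and mesenchyme sums given above. Most of the difference in the epithelial sum came from Fabp1, at 2213 and 1919 TPM. Hnf4a was nearly equal at 71.25 and 71.01 TPM, and Epcam and Cdx2 were higher in replicate 2. No marker of these lists was at 0 in either library, and their part in these differences was not tested. Slc6a17, at 2.08 and 0.870 TPM, had nearly equal counts of 98 and 95, and its estimated effective length was 2.00-fold different between the libraries.

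**Figure D5:**
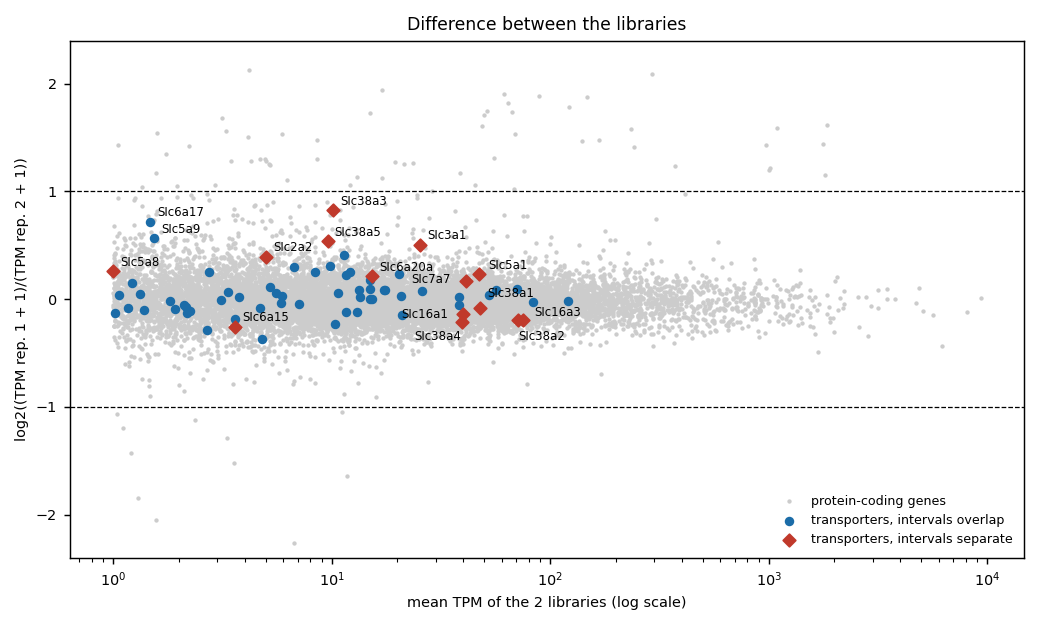
Log2 ratio of replicate 1 over replicate 2, with 1 TPM added to each, against mean TPM on a log scale. Grey points are protein-coding genes averaging at least 1 TPM, blue circles transporters whose credibility intervals overlap, red diamonds the 14 whose intervals do not, and dashed lines mark 2-fold; every transporter lies between these lines, with Slc38a3 highest at 0.83.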

How the data were processed

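The measurement was total RNA-seq of 2 libraries of E15.5 mouse intestine. Per the labels, a mirVana extraction supplied 10 ng of RNA per library, the size range was above 200 nucleotides, and ERCC spike-ins were used. The labels number the separate embryo pools as biological replicates 1 and 2. The deposited readme names mm10 and GENCODE M4 as assembly and annotation. Quantifier, aligner, strand setting and read length: not given in the sources used here.

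For each gene and transcript the authors deposited expected counts (estimated, not always whole), TPM, FPKM and a posterior mean TPM, and for transcripts the percent of the gene's output, per the file headers. The deposited bounds of the credibility intervals for posterior mean TPM were used as a score, since their level is not stated. Other deposited columns, such as effective length, were used as given.

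GENCODE M21 (GRCm38) supplied symbols, biotypes and positions by Ensembl identifier without version. Transporters and lists were chosen with earlier results of these data known. Named genes are those averaging at least 10 TPM, family leaders, those over 2-fold apart, all apical and basolateral genes, and the partner list; some of these are not reported here. A few further genes (Slc38a5, Slc6a17, Slc6a15, Slc7a10, Slc7a11, genes led by a noncoding transcript, genes at 0 and neighbours) were named after their values were seen. Words of 31 bases were compared with all other GENCODE transcripts on both strands. Fold limits applied at a mean of at least 1 TPM and 50 counts in either library. There is 1 group, so no differential test was made. The 2 libraries differed beyond sampling noise (chi-square per degree of freedom 18.3 over 19707 genes) and were counted as 2 samples. The 3-count limits cover counting error only. The ratio script was tested on simulated data. Python 3.11.15, pandas 2.3.3, Biopython 1.88, and, for alternative scalings, edgeR 4.0.16 and DESeq2 1.42.0 in R 4.3.3 were used.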

Additional observations from a re-analysis of the deposited data

How the results depend on the processing

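Alternatives covered the detection and level limits, posterior mean TPM, TPM rescaled without spike-ins, mitochondrial genes and globins, FPKM, the pseudocount, the fold limit, low-value filters, count scaling, shared sequence and leaving out a library. The count of transporters at 10 TPM was 33, and with a limit of 20 TPM it was 17. The count over 2-fold apart was 0, became 1 (Slc6a17) with a pseudocount of 0.1 and 2 (Slc38a3 and Slc6a17) with a fold limit of 1.5. The count led by a noncoding transcript was 4, was 1 at 10 TPM in both libraries, and lay between 2 and 4 when a library was left out, with 2 without replicate 1. The summed share was 0.135% and became 0.127% without the 10 transporters that share sequence, which removes genes by construction. The detected count lay between 69 and 71 when a library was left out, which cannot lower it because detection asks for both libraries. Slc38a10 led its family in place of Slc38a2 with posterior mean TPM and without replicate 2, so that 10 of 11 leaders were kept. The other alternatives run left each count over the transporters within 1.5 times, and the median ratio and summed share within 1 SD. For the median ratio this SD was the 0.23 spread over single genes, too wide to flag a shift of a median. The median itself lay between 0.01 without a filter on low values and 0.07 with TMM-scaled counts. Single levels moved more: rescaling raised them by 1.11-fold, beyond 1 SD in 32 of 45 named genes, and posterior means changed them by 0.978- to 1.29-fold, beyond 1 SD in 11. Slc1a2 was listed at 0.130 and 0.290 TPM, but at 2.12 and 2.06 by posterior mean. Ratios and interval counts need both libraries, so no library was left out there. No paired analysis was possible because the samples form 1 group. Depth limits the 4 transporters with no counts. Their limits from counting error alone lay between 0.0775 and 0.114 TPM, and their levels could be higher. The upper bounds of their deposited credibility intervals ran from 0.211 TPM for Slc7a12 in replicate 2 to 0.818 TPM for Slc15a5 in replicate 1.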
